A study of Mus musculus with 12 samples.

Results

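The Hippo pathway was examined at the level of its transcripts in dorsal root ganglia (DRG) of mice that develop schwannomas. A list of 36 genes was followed, chosen by symbol among the 49315 genes of the deposited count table. It comprised YAP and TAZ (Yap1 and Wwtr1), 4 TEAD factors, 7 core kinases and cofactors, 4 upstream kinases, 6 angiomotins and scaffolds, 2 LIM proteins that inhibit LATS, 2 VGLL cofactors and 9 target genes. All 36 passed the filter on low counts and were among the 18295 genes tested.

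Of the 12 mice, 6 carried Postn-Cre and Nf2 flox/flox alleles (Nf2 mice), and 6 carried Fak1 flox/flox alleles as well (double knockout, DKO mice). Each genotype had 3 mice labelled male and 3 labelled female, all aged 10 months. The 8 DRG taken from a mouse gave 1 poly(A) RNA library. The Cre is driven by the Periostin promoter, which is active in Schwann cells and their precursors, and the ganglia also hold neurons, macrophages, vessels and connective tissue. In which of these the alleles were deleted was not analysed here. The controls also lack Nf2, and a wild-type or Fak-only group was not analysed here. The comparison therefore addresses pathway transcripts of whole ganglia with Fak1 targeted besides Nf2, not what loss of Nf2 does to the pathway.

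The Hippo pathway is a kinase cascade that restrains growth. The kinases MST1 and MST2, with their scaffold SAV1, activate LATS1 and LATS2, which act with MOB1 and phosphorylate YAP and TAZ. Phosphorylated YAP and TAZ are held in the cytoplasm or degraded, whereas the unphosphorylated proteins enter the nucleus, bind TEAD factors and switch on genes such as Cyr61, Ctgf and Ankrd1. Merlin, the product of Nf2, promotes LATS activity at the membrane, and YAP and TAZ are needed in Schwann cells for proliferation and myelination. Focal adhesion kinase and its partner Src carry signals from integrins that can favour YAP activity. Most of this control acts on proteins, which RNA sequencing does not measure.

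A TEAD factor recognises the letters GGAATG, or CATTCC on the opposite strand. Start-site windows (250 bases before to 50 after each start) from RefSeq on GRCm38.p6 were found for 27 of the 36 genes, Cyr61 under its newer symbol Ccn1. These letters occurred in the windows of 15 of the 27 genes (55.6%), against 16.6% of the 27025 genes with a window. The AP-1 letters TGANTCA, searched on both strands, occurred in 0 of the 27, against 8.97% of all genes. A match is a description of letters and not of a bound site. The 250 bases before the start are shown for the target genes Cyr61 and Axl and for Wwtr1 and Vgll3, whose transcript levels are followed below, with the TEAD letters in capitals.
Cyr61, chr3:145649986-145650235, minus strand: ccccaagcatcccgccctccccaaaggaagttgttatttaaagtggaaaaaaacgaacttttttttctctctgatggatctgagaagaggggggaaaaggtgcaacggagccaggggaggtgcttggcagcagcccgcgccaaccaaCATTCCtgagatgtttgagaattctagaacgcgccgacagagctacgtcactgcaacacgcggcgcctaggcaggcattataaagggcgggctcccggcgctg
Axl, chr7:25788734-25788983, minus strand: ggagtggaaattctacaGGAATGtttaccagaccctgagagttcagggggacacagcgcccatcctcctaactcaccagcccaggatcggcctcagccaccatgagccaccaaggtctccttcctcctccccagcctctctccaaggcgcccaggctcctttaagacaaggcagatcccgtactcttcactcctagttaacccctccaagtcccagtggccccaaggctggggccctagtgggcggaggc
Wwtr1, chr3:57575911-57576160, minus strand: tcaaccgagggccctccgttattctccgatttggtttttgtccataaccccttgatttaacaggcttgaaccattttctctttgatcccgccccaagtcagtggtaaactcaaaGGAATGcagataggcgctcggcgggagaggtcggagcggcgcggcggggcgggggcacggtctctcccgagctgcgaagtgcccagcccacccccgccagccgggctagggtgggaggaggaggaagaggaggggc
Vgll3, chr16:65814939-65815188, plus strand: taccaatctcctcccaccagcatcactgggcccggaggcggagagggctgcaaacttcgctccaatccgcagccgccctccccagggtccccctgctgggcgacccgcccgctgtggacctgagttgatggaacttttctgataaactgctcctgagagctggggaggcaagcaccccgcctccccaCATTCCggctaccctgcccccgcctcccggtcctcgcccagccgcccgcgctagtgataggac

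For Yap1, the angiomotin gene Amotl2 and the target genes Ankrd1 and Crim1, the bases before the RefSeq start overlap an annotated exon, and 30 bases around each match are shown instead. Ankrd1 held 2 matches in its window.
Yap1, chr9:8004720-8004749, minus strand: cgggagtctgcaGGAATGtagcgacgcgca
Amotl2, chr9:102717727-102717756, plus strand: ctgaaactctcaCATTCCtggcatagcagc
Ankrd1, chr19:36120037-36120066, minus strand: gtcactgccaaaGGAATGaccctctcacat
Ankrd1, chr19:36119950-36119979, minus strand: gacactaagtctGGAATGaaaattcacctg
Crim1, chr17:78200157-78200186, plus strand: agggcgggggggGGAATGaggtaggatggg
In Cyr61 the match began 103 bases before the start, in Axl 233, in Wwtr1 136, in Vgll3 63 and in Yap1 141. Such letters thus lay before some genes of the pathway machinery (Yap1, Wwtr1, Amotl2) and before some of its targets (Cyr61, Ankrd1, Axl, Crim1). Only genes with a match are shown. The target Nt5e and machinery genes such as Lats1, Stk4 and Amotl1 had a window without a match. No window was found for the targets Ctgf, Fjx1, Arhgef17 and Dlc1.

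Libraries held 21129191 to 41250329 counts, and levels are given as CPM, which are counts scaled to the library total. A library labelled male stood apart. Nf2 mouse 702 had 496 CPM of Xist, transcribed from the inactive X chromosome, and 0.525 CPM of the Y-linked Ddx3y. The other 5 mice labelled male had at most 6.17 CPM of Xist and at least 76.0 CPM of Ddx3y, and the 6 labelled female had at least 428 and at most 0.852 CPM. The genotype comparison does not use sex. Results by labelled sex are given with and without mouse 702.

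The targeted genes did not separate the groups. Ptk2, which encodes focal adhesion kinase and is called Fak1 in the labels, had a lowest, median and highest level of 65.8, 70.1 and 75.5 CPM in Nf2 mice and of 46.5, 66.8 and 76.0 CPM in DKO mice. Its log2 fold change in DKO against Nf2 mice was -0.15 ± 0.10 (SE, edgeR adjusted p = 0.529, n = 6 per genotype). Nf2 had 109, 130.4 and 143 CPM in Nf2 mice and 99.2, 120.3 and 132 CPM in DKO mice, and its log2 difference was -0.14 ± 0.08 (edgeR adjusted p = 0.435). Counts over whole genes thus did not check the labels, and reads of the deleted exons were not analysed here.

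None of the 36 genes passed the threshold of an adjusted p of 0.05 in the comparison of DKO with Nf2 mice (edgeR's quasi-likelihood test, Benjamini-Hochberg adjustment over all 18295 genes, 0 of 36). Over all genes, 172 passed (0.940%). At an unadjusted p under 0.05 there were 8 of the 36 (22.2%), against 14.9% of all genes. Of these, 7 were lower in DKO mice (Yap1, Wwtr1, Lats2, Amotl2, Vgll3, Axl and Fjx1), a direction that 7.96% of all genes took at this p, and Crim1 was higher. DESeq2 called 3 of the 36 (8.33%; all genes 4.62%), which were Yap1, Wwtr1 and Vgll3. The limma voom fit called 2 (5.56%; all genes 2.85%), Yap1 and Vgll3, and every call by either tool was lower in DKO mice.

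The fitted log2 fold change was below 0 for 24 of the 36 genes and above 0 for 12. Its median was -0.07, beside 0.00 over all genes tested, of which 49.0% were below 0. The plot of fold changes by role shows the genes farthest below 0 spread over YAP and TAZ, the scaffolds, a VGLL cofactor and the targets rather than gathered in 1 role. In 0 of the 36 were the CPM values of the genotypes free of overlap, against 1.95% of all genes. Because the ganglion is a mixture, fewer cells of a type and less RNA per cell cannot be told apart in any of these values.

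**Figure D1:**
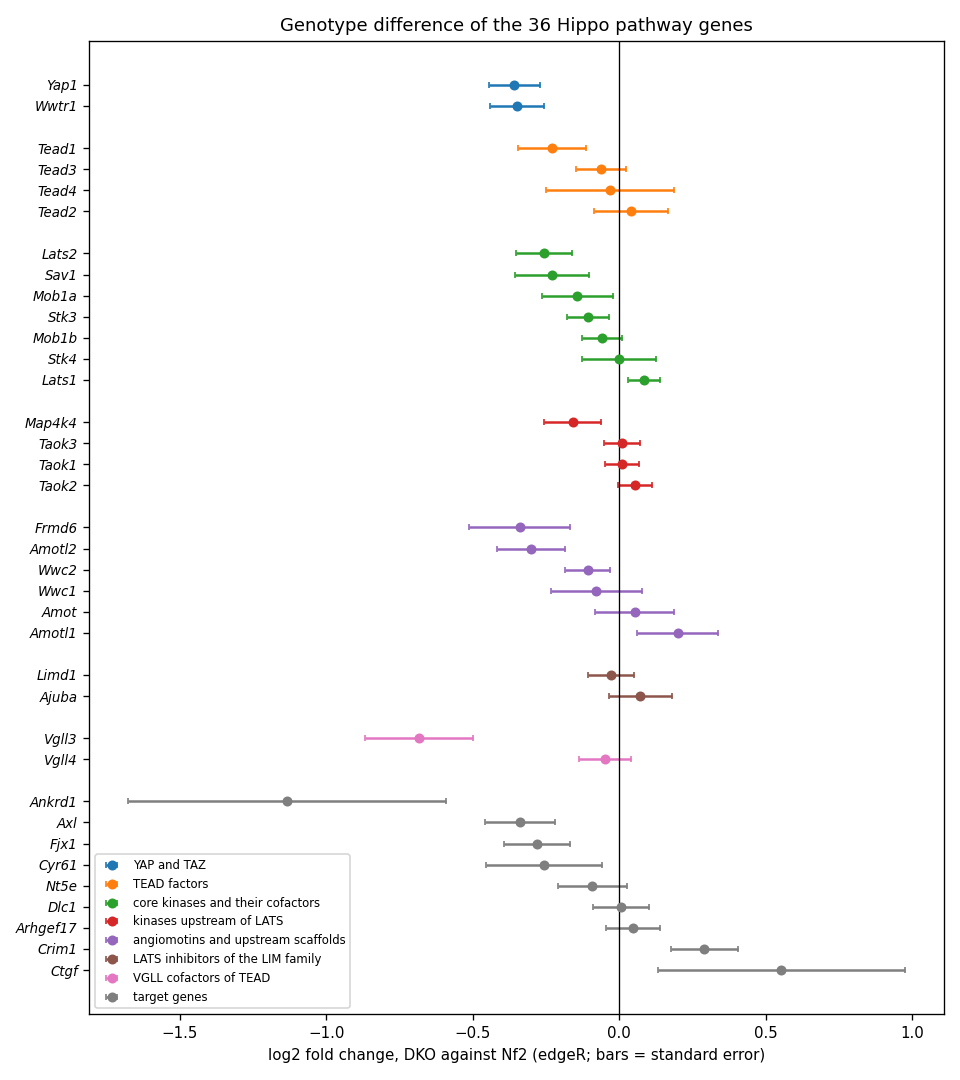
Log2 fold change in DKO against Nf2 mice (x axis, edgeR, 6 mice per genotype) of each of the 36 genes (y axis), grouped and coloured by role, with bars for the standard error. The lowest values are those of Ankrd1 (-1.14), Vgll3 (-0.69) and Yap1 (-0.36), and the highest are those of Ctgf (0.55), Crim1 (0.29) and Amotl1 (0.20).

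YAP and TAZ, the transcriptional coactivators at the end of the cascade, had lower transcript levels in most DKO mice. Yap1 (ENSMUSG00000053110, GRCm38 chromosome 9, 7931999 to 8004596, minus strand) had 117, 103, 94.7, 115, 93.0 and 100.2 CPM in Nf2 mice 649, 702, 884, 918, 1048 and 1049. In DKO mice 885, 886, 887, 914, 915 and 917 it had 80.4, 68.9, 89.97, 77.8, 94.3 and 81.1 CPM. Thus 5 of the 6 DKO mice lay below the lowest Nf2 mouse, and mouse 915 lay just above it. The means were 104 ± 9.94 and 82.1 ± 9.01 CPM (SD, n = 6), and the log2 fold change was -0.36 ± 0.09 (SE). Its adjusted p was 0.0733 by edgeR, 0.00889 by DESeq2 and 0.0345 by limma voom. Over fits that each left out 1 mouse the adjusted p ran from 0.0517 (without mouse 887) to 0.156 (without mouse 918) by edgeR.

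Wwtr1, which encodes TAZ (ENSMUSG00000027803, chromosome 3, 57455649 to 57575910, minus strand), showed a similar arrangement. In the same order of mice it had 94.6, 104, 97.0, 129, 93.0 and 98.7 CPM in Nf2 mice and 78.3, 72.3, 81.4, 80.2, 99.1 and 79.6 CPM in DKO mice. Again 5 of the 6 DKO mice lay below every Nf2 mouse and mouse 915 did not. The log2 fold change was -0.35 ± 0.09 (edgeR adjusted p = 0.0932, DESeq2 adjusted p = 0.0189, voom adjusted p = 0.0593). Mouse 915 was the only DKO mouse that overlapped the Nf2 mice for either gene. Leaving it out therefore removes the overlap by construction and adds no evidence (2.85% of all genes did not overlap without it). Over fits that each left out 1 mouse, the edgeR adjusted p of Wwtr1 ran from 0.0533 (without mouse 915) to 0.178 (without mouse 885). Without mouse 918, the highest Nf2 mouse, its log2 fold change was -0.27.

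Per length, Wwtr1 was the more abundant of the pair. Summed exon lengths gave 19.3 ± 3.23 CPM per kb for Wwtr1 and 10.0 ± 1.56 for Yap1 over the 12 mice, and Wwtr1 was the higher in all 12. The summed length counts every annotated exon, so that a gene with a long and rarely used exon gets a low value.

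Among the TEAD factors, the DNA-binding partners of YAP and TAZ, Tead1 was the most abundant. Its level over the 12 mice was 9.36 ± 1.57 CPM per kb, followed by Tead3 at 3.66 ± 0.330, Tead2 at 1.499 ± 0.199 and Tead4 at 1.05 ± 0.303. Tead1 was above Tead3 and Tead3 above Tead2 in each of the 12 mice with no overlap of ranges, whereas the ranges of Tead2 and Tead4 overlapped. Tead1 had a lowest, median and highest level of 106, 140.3 and 168 CPM in Nf2 mice and 104, 110.9 and 141 CPM in DKO mice. Although 5 of 6 DKO mice were below the Nf2 mean, the genotypes overlapped widely (log2 fold change -0.23 ± 0.12, edgeR adjusted p = 0.379). Tead2, Tead3 and Tead4 had log2 fold changes of 0.04, -0.06 and -0.03, each smaller than its standard error.

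VGLL proteins compete with or complement YAP at TEAD factors. Vgll3 (ENSMUSG00000091243, chromosome 16, 65815257 to 65866368, plus strand) had the lowest fold change apart from the sparse Ankrd1. Nf2 mice 649, 702, 884, 918, 1048 and 1049 had 131, 229.7, 179, 229.9, 126 and 164 CPM. DKO mice 885, 886, 887, 914, 915 and 917 had 115, 77.1, 85.8, 139, 141 and 112 CPM. All 6 DKO mice were below the Nf2 mean and 4 were below the lowest Nf2 mouse, while mice 914 and 915 lay among the lower Nf2 mice. The log2 fold change was -0.69 ± 0.18 (edgeR adjusted p = 0.101, DESeq2 adjusted p = 0.0122, voom adjusted p = 0.0387). It stayed between -0.77 and -0.59 when each mouse was left out in turn. Vgll4, a repressor of TEAD activity, had 71.8 ± 8.39 and 70.4 ± 7.80 CPM, with a log2 fold change of -0.05 ± 0.09.

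Markers of the cells in the ganglion were measured beside these genes. The 10 genes of the Schwann lineage list summed to 4715 to 5332 CPM in Nf2 mice and 4358 to 5463 CPM in DKO mice, with a median log2 fold change of -0.04. The 9 fibroblast markers summed to 1357 to 1697 and 1173 to 1724 CPM, with a median of 0.07. Of the 12 macrophage markers, 11 were fitted lower in DKO mice, with sums of 293 to 441 and 235 to 317 CPM, and 1 passed the threshold. Sensory neuron markers summed to 5765 to 7354 and 6250 to 6970 CPM, so that the labelled tissue held its defining markers. All 7 erythroid and all 8 neutrophil and bone marrow markers were fitted higher in DKO mice. Of 7 B and plasma cell markers, 6 were fitted higher and 1 lower. In these 3 lists 0 passed the threshold, and the sums of the genotypes overlapped. Of 6 satellite glia markers, 3 were fitted higher and 3 lower, with a median log2 fold change of -0.18. The part of these cell types in the values of Yap1, Wwtr1 and Vgll3 was not tested.

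**Figure D2:**
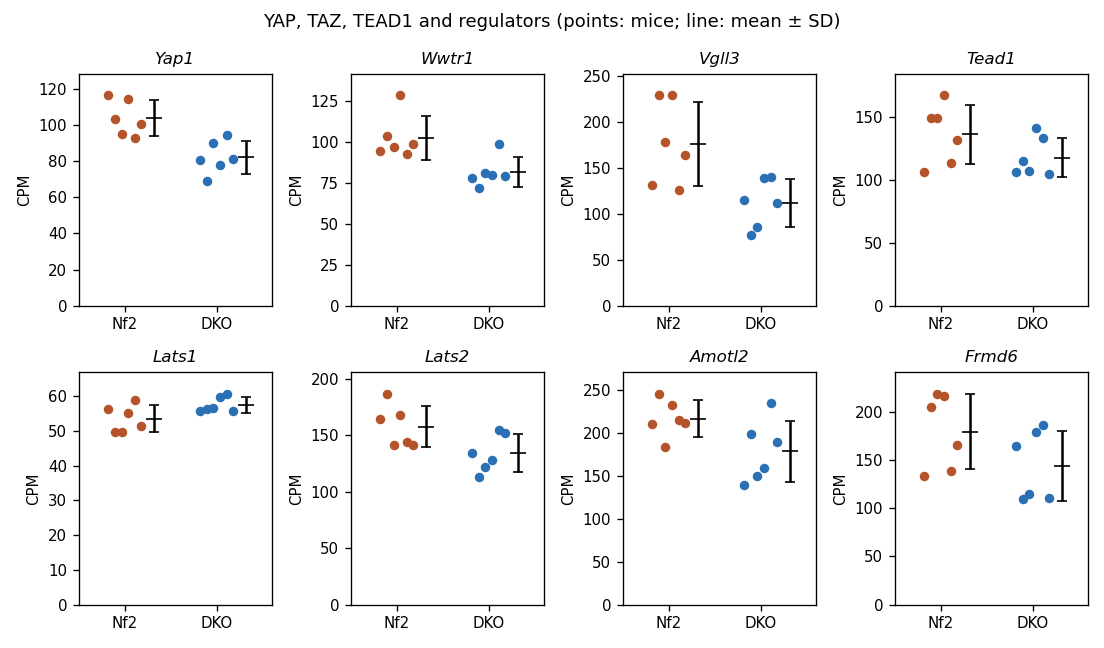
CPM (y axis, from 0) of 8 genes of the pathway machinery in each mouse (points) of the Nf2 and DKO groups (x axis), with the mean and SD beside them, n = 6 per genotype. For Yap1 and Wwtr1, 5 of 6 DKO points lie below every Nf2 point, whereas for Lats1 every DKO point lies above the Nf2 mean and the ranges overlap.

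The core kinase module gave small differences of either sign. Lats1 and Lats2 encode the kinases that phosphorylate YAP and TAZ. Lats1 had a lowest, median and highest level of 49.6, 53.2 and 58.9 CPM in Nf2 mice and 55.6, 56.4 and 60.7 CPM in DKO mice. All 6 DKO mice were above the Nf2 mean, and the log2 difference was 0.08 ± 0.06 (edgeR adjusted p = 0.521). Lats2, itself a known target of YAP, had 141, 154 and 187 CPM in Nf2 mice and 113, 131 and 155 CPM in DKO mice. Here all 6 DKO mice were below the Nf2 mean and 4 were below the lowest Nf2 mouse (log2 fold change -0.26 ± 0.10, edgeR adjusted p = 0.214). Lats2 shares 42.4% of its exon length with an overlapping gene on the same strand, Gm49361, so that reads there could not be assigned with certainty. Lats2 was more abundant than Lats1 in all 12 mice, at 20.9 ± 2.99 against 7.60 ± 0.498 CPM per kb.

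The MST kinases, encoded by Stk4 and Stk3, had log2 fold changes of 0.00 and -0.11. The scaffold gene Sav1 had -0.23 ± 0.13, with all 6 DKO mice below the Nf2 mean and an edgeR adjusted p of 0.431. A stretch of 25.4% of the Sav1 exons is shared with Atl1 on the opposite strand, and whether counting used strand is not given in the sources used here. The LATS cofactor genes Mob1a and Mob1b had -0.14 and -0.06, and Mob1a was the more abundant, at 16.98 ± 2.79 against 1.78 ± 0.146 CPM per kb. Of the 7 core genes, 6 were thus fitted lower and 1 higher, with a median of -0.11.

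Kinases that act on LATS or MST from upstream followed. Taok1, Taok2 and Taok3, members of the TAO kinase family, had log2 fold changes of 0.01, 0.05 and 0.01, each with a standard error of 0.06. Taok1 had 145 to 182 CPM in Nf2 and 155 to 186 CPM in DKO mice, and for Taok2, with 119 to 139 and 123 to 157 CPM, 3 DKO mice lay above every Nf2 mouse. Map4k4, which can phosphorylate LATS directly, had 288 to 339 CPM in Nf2 mice and 214 to 351 CPM in DKO mice, and differed by -0.16 ± 0.10 (log2). DKO mouse 886 held its lowest value, and without that mouse the log2 fold change was -0.09.

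Angiomotins bind YAP and TAZ at junctions. Amotl2, the most abundant at 31.3 ± 5.47 CPM per kb, had a lowest, median and highest level of 183, 213 and 245 CPM in Nf2 mice and 139, 174 and 234 CPM in DKO mice. Below the lowest Nf2 mouse lay 3 DKO mice, while mice 886, 915 and 917 lay within the Nf2 range. The log2 fold change was -0.30 ± 0.12 (edgeR adjusted p = 0.237). With each mouse left out, the edgeR adjusted p ran from 0.102 (without mouse 915) to 0.370 (without mouse 885). Amotl1 had 85.7, 131 and 165 CPM in Nf2 mice against 123, 148 and 162 CPM in DKO mice. Its log2 fold change, below only those of Ctgf and Crim1, was 0.20 ± 0.14 (edgeR adjusted p = 0.554), with DKO values inside the Nf2 range. Amot, at 2.74 ± 0.459 CPM per kb, had a log2 fold change of 0.05 ± 0.13.

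The upstream scaffold Frmd6, a FERM-domain protein like merlin, had 134, 185 and 219.5 CPM in Nf2 mice and 109.7, 139.9 and 187 CPM in DKO mice. Its log2 fold change was -0.34 ± 0.17 (edgeR adjusted p = 0.385) and 3 DKO mice lay below the lowest Nf2 mouse. Wwc1, which encodes the merlin partner KIBRA, and Wwc2 had log2 fold changes of -0.08 and -0.11. The LIM-domain genes Ajuba and Limd1, whose products inhibit LATS, had 0.07 and -0.03, and neither exceeded its standard error.

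**Figure D3:**
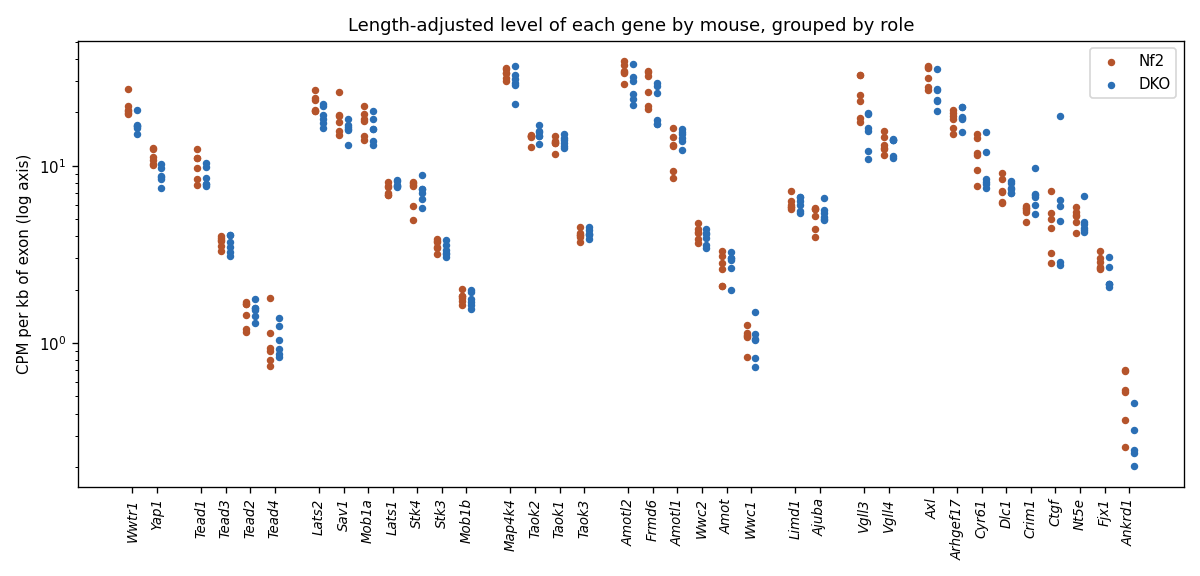
CPM per kb of summed exon length (y axis, log scale) of the 36 genes (x axis) in each Nf2 and DKO mouse, grouped by role and ordered by mean level within a role. Wwtr1 lies above Yap1 and Tead1 above the other TEAD genes in every mouse, and DKO mouse 914, with 0 counts of Ankrd1, has no point there.

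Target genes of YAP and TAZ were fitted in both directions, none past the threshold. Of the 9, 5 were fitted lower and 4 higher in DKO mice, with a median log2 fold change of -0.09. Cyr61 and Ctgf, secreted matrix proteins of the CCN family, and Ankrd1, a nuclear ankyrin-repeat protein also known from muscle, are the targets measured most often as readouts. Cyr61 and Ankrd1 were fitted lower, and the sign of Ctgf turned on 1 mouse.

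Cyr61 had a lowest, median and highest level of 15.6, 23.5 and 30.3 CPM in Nf2 mice and 15.2, 16.7 and 31.3 CPM in DKO mice. DKO mice held both the lowest and the highest value, and the log2 fold change was -0.26 ± 0.20 (edgeR adjusted p = 0.598). Ctgf had 8.09, 14.3, 9.16, 12.8, 15.5 and 20.7 CPM in Nf2 mice 649, 702, 884, 918, 1048 and 1049, and 14.0, 54.5, 8.19, 7.85, 16.9 and 18.4 CPM in DKO mice 885, 886, 887, 914, 915 and 917. Only mouse 886 exceeded the Nf2 range. The log2 fold change was 0.55 ± 0.42 with mouse 886 and -0.06 ± 0.27 without it (edgeR adjusted p = 0.595 and 0.945). Ctgf also shares 23.2% of its exon length with Gm15270 on the opposite strand.

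Ankrd1 had few counts, from 0 in DKO mouse 914 to 60 in Nf2 mouse 918. Its levels were 1.06, 0.7502, 2.02, 2.03, 1.58 and 1.53 CPM in Nf2 mice and 0.721, 0.937, 1.33, 0.00, 0.582 and 0.691 CPM in DKO mice, in the same order of mice. A count of 0 at the depth of mouse 914 allows up to 0.0727 CPM, by counting error alone. All 6 DKO mice were below the Nf2 mean and 4 were below the lowest Nf2 mouse. The log2 fold change was the lowest of the 36 genes, at -1.14 ± 0.54 (edgeR adjusted p = 0.352), and was -0.84 without mouse 914. Its DESeq2 and voom adjusted p were 0.287 and 0.155.

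Skeletal muscle, which can be dissected along with the ganglion, varied among the same libraries. All 14 muscle markers were fitted lower in DKO mice with a median log2 fold change of -2.20, and 0 passed the threshold. The sums ran from 60.4 to 1339 CPM in Nf2 and from 71.3 to 464 CPM in DKO mice. Across the 12 mice, log2(CPM + 1) of Ankrd1 and the mean log2(CPM + 1) of the muscle list had r = 0.60 (permutation p = 0.0326, 0.0489 after adjustment over 3 relations) and Spearman's coefficient = 0.56 (permutation p = 0.0616, adjusted 0.0616). Without the 2 mice farthest from the median muscle level (918 and 1049), r was 0.45 (permutation p = 0.176, n = 10). That subset has fewer mice and a narrower range of muscle level, so it cannot show whether the relation rested on those mice. Ankrd1 and the muscle markers were both fitted lower in DKO mice, and r over all 12 mice includes that difference. Within genotypes r was 0.95 in Nf2 mice (exact permutation p = 0.0194, Spearman's coefficient 0.83 with exact permutation p = 0.0583) and -0.20 in DKO mice (exact permutation p = 0.681), and the difference between the genotypes was not tested. With the muscle level as a covariate the log2 fold change of Ankrd1 was -0.81 (edgeR adjusted p = 0.589).

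Cyr61 is also induced rapidly by stress and growth factors, as immediate early genes such as Fos and Egr1 are. Over the 12 mice, its level and the mean of 10 immediate early genes had r = 0.81 (permutation p = 0.00222, adjusted 0.00666) and Spearman's coefficient = 0.77 (permutation p = 0.00496, adjusted 0.0149). Without the 2 farthest mice (1048 and 1049) r was 0.70 (permutation p = 0.0318). Within genotypes r was 0.88 in Nf2 mice (exact permutation p = 0.0194) and 0.73 in DKO mice (exact permutation p = 0.111). The mice with the highest Cyr61 (915, 1048 and 1049) were among the 4 with the highest mean of immediate early genes, 9 of which were fitted lower in DKO mice and 0 of which passed the threshold.

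Cyr61 and Ctgf, targets of the same coactivators, had r = 0.23 with each other (permutation p = 0.500, adjusted 0.500) and Spearman's coefficient = 0.60 (permutation p = 0.0432, adjusted 0.0616). Their r was 0.21 without mice 915 and 1048 (permutation p = 0.563). Within genotypes it was 0.65 in Nf2 mice (exact permutation p = 0.167) and 0.21 in DKO mice (exact permutation p = 0.547). Spearman's coefficient within genotypes was 0.60 in Nf2 mice (exact permutation p = 0.242) and 0.77 in DKO mice (exact permutation p = 0.103). With mouse 886 included, by far the highest in Ctgf, r thus did not detect a linear relation. Their r without mouse 886 was not computed, and leaving out mice 915 and 1048 does not stand in for it. Whether the low r rested on mouse 886 was therefore not tested.

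**Figure D4:**
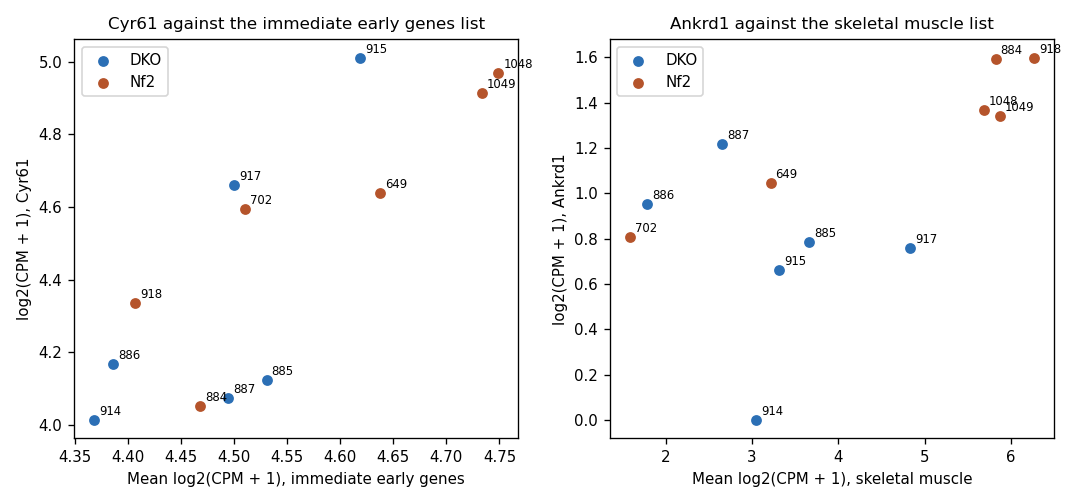
Left, log2(CPM + 1) of Cyr61 (y axis) against the mean log2(CPM + 1) of 10 immediate early genes (x axis), and right, Ankrd1 against 14 skeletal muscle genes, for each of the 12 mice, coloured by genotype and labelled by mouse number. For Cyr61 and the immediate early genes r is 0.81 over all mice, and for Ankrd1 and muscle r is 0.95 in the 6 Nf2 mice and -0.20 in the 6 DKO mice, a difference that was not tested.

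Among the other targets, Axl, a receptor tyrosine kinase, had a lowest, median and highest level of 135, 168 and 183 CPM in Nf2 mice and 102, 126 and 176 CPM in DKO mice (log2 fold change -0.34 ± 0.12, edgeR adjusted p = 0.195). Below the lowest Nf2 mouse lay 3 DKO mice, and mouse 915 was the DKO mouse within the upper Nf2 values. With each mouse left out, the edgeR adjusted p of Axl ran from 0.0748 (without mouse 915) to 0.350 (without mouse 917). Fjx1, the homologue of a fly regulator of Fat and Dachsous signalling, had 8.18 to 10.4 CPM in Nf2 and 6.51 to 9.58 CPM in DKO mice, with 4 DKO mice below every Nf2 mouse (log2 fold change -0.28 ± 0.11, edgeR adjusted p = 0.252).

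Crim1, a transmembrane protein that binds bone morphogenetic proteins, went the other way. It had a lowest, median and highest level of 29.0, 34.2 and 35.7 CPM in Nf2 mice and 32.2, 40.3 and 58.2 CPM in DKO mice, so that 5 DKO mice lay above every Nf2 mouse. The log2 fold change was 0.29 ± 0.12 (edgeR adjusted p = 0.249), and 0.17 without mouse 886. Nt5e, the ectoenzyme CD73, had -0.09 ± 0.12. Arhgef17 and Dlc1 had 0.05 and 0.01, with 162 to 222 against 167 to 233 CPM for Arhgef17.

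DKO mouse 886 held the highest level of Ctgf, Crim1 and Nt5e among the 12 mice. The lowest levels of Yap1, Wwtr1, Vgll3, Lats2, Frmd6, Map4k4 and Ptk2 were found in this mouse too. It also had the highest sums of the endothelial markers (337 CPM, against 164 to 237 in Nf2 mice) and of the perineurial and meningeal markers (548 CPM, against 339 to 409). Of the 10 endothelial markers 9 were fitted higher in DKO mice, and of the 8 perineurial and meningeal markers all 8, with 0 past the threshold in both lists. In the same mouse the macrophage, Schwann lineage and fibroblast sums were the lowest of the DKO group, at 235, 4358 and 1173 CPM. By the mean log2(CPM + 1) of each list, only the Schwann lineage remained lowest in mouse 886. Macrophage markers then had 4.03 in mouse 886 and 3.96 in mouse 917, and fibroblast markers 5.64 in mouse 886 and 5.30 in mouse 887. The part of these cells in the gene values of mouse 886, high or low, was not tested.

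**Figure D5:**
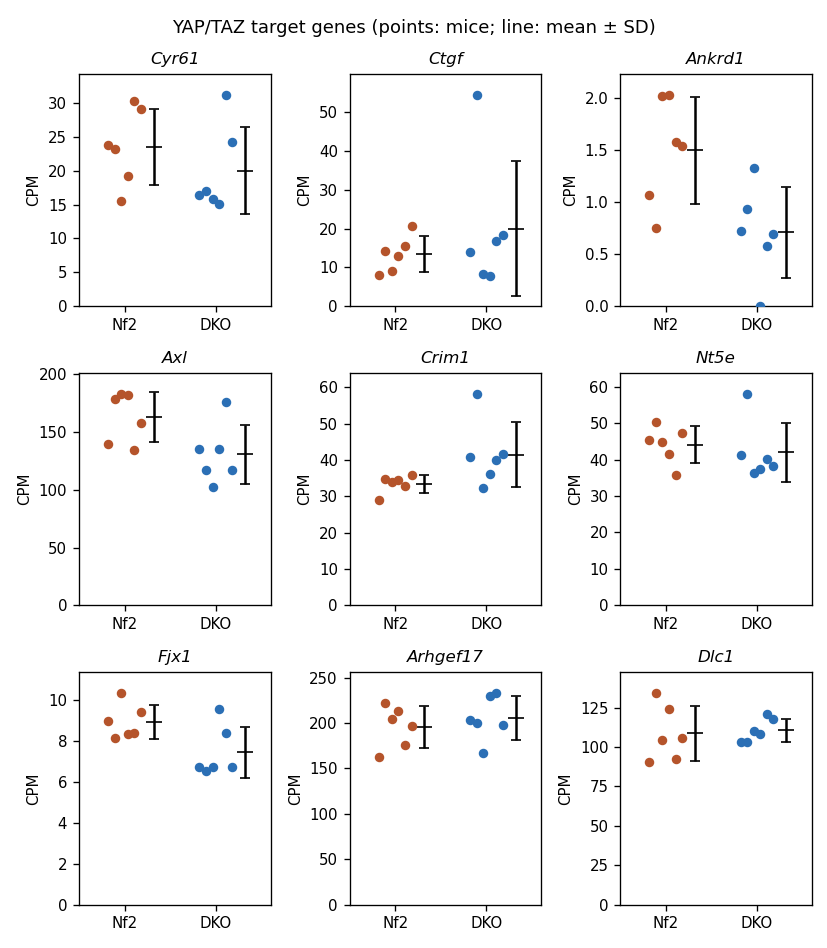
CPM (y axis, from 0) of the 9 target genes in each mouse (points) of the Nf2 and DKO groups (x axis), with the mean and SD beside them, n = 6 per genotype. DKO mouse 886 has the highest value of Ctgf (54.5 CPM), Crim1 (58.2 CPM) and Nt5e (58.0 CPM, beside 50.2 CPM in the highest Nf2 mouse), and DKO points lie on both sides of the Nf2 range for Cyr61.

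Other genes of the pathway were taken from 2 further lists. Of 57 tested regulators of the cascade, 1 passed the threshold, as did 0.940% of all genes. This was Map4k3 (ENSMUSG00000024242, chromosome 17, 80580512 to 80728485, minus strand), a kinase of the same family as Map4k4 that can act on LATS in parallel with MST. It had 107, 144, 137, 148, 110.0 and 141 CPM in Nf2 mice 649, 702, 884, 918, 1048 and 1049, and 88.2, 96.4, 87.2, 83.8, 99.2 and 97.0 CPM in DKO mice 885, 886, 887, 914, 915 and 917. All DKO mice were below all Nf2 mice. Its transcript fell, with a log2 fold change of -0.53 ± 0.09 and an adjusted p of 0.0107 by edgeR, and it was called in all 12 fits that left out 1 mouse, by DESeq2 (adjusted p = 7.33e-06) and by limma voom (adjusted p = 0.00143).

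Of the other regulators, 26 were fitted higher and 31, Map4k3 included, lower, with a median of -0.01. At an unadjusted p under 0.05 by edgeR, 1 was higher and 3 were lower (7.02%, beside 14.9% of all genes). Next by p were Src, the kinase that pairs with focal adhesion kinase (log2 fold change -0.24 ± 0.08, edgeR adjusted p = 0.161), and Ywhae, a 14-3-3 protein of the family that retains phosphorylated YAP in the cytoplasm (-0.14 ± 0.05, adjusted p = 0.219). Ywhae had 620.3 to 686 CPM in Nf2 and 569 to 601 CPM in DKO mice, without overlap, and DESeq2 called it (adjusted p = 0.0235).

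Among 21 further targets of YAP and TAZ that were tested, edgeR called 0, with 4 at an unadjusted p under 0.05 (19.0%, beside 14.9% of all genes), all higher in DKO mice. Igfbp3, a secreted binding protein of insulin-like growth factors, had 19.5 to 30.7 CPM in Nf2 and 32.4 to 110 CPM in DKO mice, again with mouse 886 highest. Its log2 fold change was 0.97 ± 0.28 (edgeR adjusted p = 0.116, DESeq2 adjusted p = 0.0143). Of 12 edgeR fits that each left out 1 mouse, 1 called Igfbp3. This was the fit without mouse 886 (log2 fold change 0.56, adjusted p = 0.0482), and the adjusted p reached 0.201 without mouse 1049. The transcription factor gene Foxf2 (0.73 ± 0.22, adjusted p = 0.138, at most 1.92 CPM) and Dock5, an activator of Rac (0.32 ± 0.13, adjusted p = 0.238), followed. The median of this list was -0.04, with 10 genes fitted higher and 11 lower.

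Labelled sex made no called difference among the 36 genes. Between males and females edgeR called 0 of the 36 (0.0164% of all genes) and DESeq2 0, with 1 at an unadjusted p under 0.05, Map4k4 (2.91% of all genes). For the dependence of the genotype difference on sex, 0 of the 36 were called by edgeR (0.0109% of all genes) and 0 by DESeq2, and Cyr61 alone had an unadjusted p under 0.05 (0.0477), as did 4.78% of all genes. Its log2 fold change was -0.67 in the females and 0.12 in the mice labelled male. Without mouse 702 the calls were again 0 in both models, and Ajuba and Cyr61 had an unadjusted p under 0.05 for the interaction, beside 5.21% of all genes.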

How the data were processed

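RNA of 8 DRG per mouse was extracted, poly(A) selected and sequenced by a commercial provider. Per the labels and the submitters' processing notes, which give no roles, Trimmomatic 0.36, STAR 2.5.2b, featureCounts, Subread 1.5.2 and the build GRCm38 were used. The authors deposited raw counts, 1 whole number per Ensembl gene and mouse. The strand setting and the handling of reads with several matches are not given in the sources used here. Of 49315 identifiers, 49056 (99.5%) were in GENCODE M21, the source of coordinates and exon lengths. The mice are separate animals.

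Genes were kept by edgeR's filterByExpr, scaled by TMM and compared by edgeR 4.0.16's quasi-likelihood test on all 12 mice, with Benjamini-Hochberg adjustment over 18295 genes and a threshold of 0.05. DESeq2 1.42.0 and limma 3.58.1 (R 4.3.3) were alternatives, beside other scalings, filters, covariates and subsets of mice. Sex and its interaction with genotype were tested by label. The procedures were tested on simulated data. Correlations used 100000 permutations, or all 720 pairings within a genotype. The 36 genes, the other lists and the rule for naming genes (the core genes, the 3 highest and 3 lowest fold changes, any gene called, and the 3 smallest p of each further list) were chosen with earlier results of these data known. Others were named for their role. Of the further lists, Crb2 and Vgll2 did not pass the filter, and Frmd1 and Areg were not analysed here. The result of 1 list is not reported here.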

Additional observations from a re-analysis of the deposited data

Results flagged for a closer look

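Dixon's test for a single distant mouse was applied to 76 groups of 6 mice, and 7 exceeded the critical value, where chance gives about 3.8 (1 in 20). In DKO mouse 886, Ctgf had 54.5 CPM beside a next value of 18.4, Crim1 had 58.2 CPM beside 41.7, and Nt5e had 58.0 CPM beside 41.2. Nf2 mouse 918 was high for Wwtr1 (129 CPM, next 104) and for Tead4 (6.49 CPM, next 4.07). DKO mouse 915 was high for Wwtr1 (99.1 CPM, next 81.4), and Nf2 mouse 649 was low for Taok2 (119 CPM, next 135).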

How the results depend on the processing

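The count of called genes among the 36 was 0 under every scaling, filter, covariate and subset run with edgeR, and 3 with DESeq2 and 2 with limma voom. Over all genes, the 172 calls became 845 with DESeq2, 521 with limma voom, 101 with the muscle level as a covariate, 57 in females, 2 in males and 9 in males without mouse 702 (chosen after seeing the data), and 81 to 217 when each mouse was left out. The cause of these shifts was not tested, and the subsets also hold fewer mice. Leaving out a mouse gave 0 to 2 of the 36 genes without overlap between genotypes (Yap1 without 1048, Crim1 without 887, Yap1 and Wwtr1 without 915), where 2.20% to 4.58% of all genes did not overlap, against 1.95% with all mice. Of 1175 gene values, 1107 had the same sign as the main fit. A sign change of an uncalled value that moved by less than 1 SE of the main fit was labelled unchanged, and 21 values were labelled reversed. In males, log2 fold changes took the opposite sign for Tead4 (0.37, and 0.47 without mouse 702), Stk4 (0.13, 0.25), Mob1a (0.042, 0.15), Taok3 (-0.056, -0.0872), Cyr61 (0.12, 0.20) and Wwc1 (0.15), and without mouse 702 for Vgll4 (0.17) and Nf2 (0.00491). In females they did so for Taok1 (-0.057), Taok2 (-0.041), Amot (-0.084), Ajuba (-0.14) and Nt5e (0.12). Wwc1 was 0.11 with the muscle covariate. Leaving out each mouse, Tead4 ranged from -0.12 to 0.19, highest without mouse 918, and Ctgf from -0.062 (without 886) to 0.71. The relation of Cyr61 to immediate early genes was 0.73 in DKO mice, and that of Ankrd1 to muscle was 0.45 without the 2 farthest mice and -0.20 in DKO mice. None of the uncalled fold changes in a single sex, with 3 mice per genotype, sets a direction. No paired analysis was possible because each mouse has its own number.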
